A study of Mus musculus with 18 samples.

Results

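Ogt, Mgea5 and the Clk family (Clk1, Clk2, Clk3 and Clk4) were followed in nuclear and cytoplasmic RNA of mouse myofibers on 18 single-colour Agilent arrays. Every non-control probe named for 1 of these 6 genes was taken, which gave 8 probes of the 55681 on the array, 2 each for Ogt and Clk4 and 1 for each other gene. The genes were chosen with the difference between the fractions already known: Ogt stood among the coding probes with the largest nuclear excess, Mgea5 encodes the opposing enzyme, and the Clk genes are known for intron retention. The nuclear excess of these genes is therefore given as a description with no test, and tests are given for how their levels and their nuclear excess depended on the muscle.

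Myofibers were taken from the extensor digitorum longus (EDL, a fast muscle), the soleus (a slower, more oxidative muscle) and the tibialis anterior (TA, a fast muscle) of untreated female CD1 mice aged 3 months. Each sample was a pool of 5 to 10 intact fibers, freed with collagenase and lysed, after which nuclei were spun down and separated from the cytoplasm. The 6 groups, nuclei and cytoplasm of each muscle, held 3 arrays each. EDL and soleus pools with the same number came from the same mice. By the mouse numbers of the labels, TA cytoplasm 1 and 2 shared 1 mouse with each other and 1 mouse each with the TA nuclei of their number, whereas TA cytoplasm 3 and TA nuclei 3 came from different mice, and mice of the EDL and soleus pools also gave TA fibers. The p-values rest on 1 spread per probe between these pools, shared by the 6 groups. Arrays with shared mice were fitted as independent in the main fit, and the number of arrays limits the precision.

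Levels are log2 intensities after quantile normalization, so a level is a rank-based share of the labelled RNA of that fraction and not a number of molecules per fiber. Fewer cells or nuclei of a type and less RNA per cell cannot be told apart. Levels of different probes were not set against each other, apart from the spread of the Clk4 probe pair across arrays.

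The arrays lay on 4 slides. EDL and soleus cytoplasm shared slide 1 with TA cytoplasm 1, EDL and soleus nuclei filled slide 2, TA cytoplasm 3 was on slide 3, and TA cytoplasm 2 shared slide 4 with the TA nuclei, so that for EDL and soleus slide and fraction cannot be told apart. Over 35528 probes, the median SD of 3 arrays was 0.11 in EDL nuclei, 0.11 in soleus nuclei and 0.15 in TA nuclei, against 0.25, 0.37 and 0.40 in the cytoplasm of the same muscles. As the fit shares 1 spread, p-values within the cytoplasm tend to be too small and those within nuclei too large. With only the compared groups fitted, all-probe calls between TA and EDL went from 5776 to 2 in cytoplasm and from 7538 to 18740 in nuclei. TA cytoplasm 1 stood apart from TA cytoplasm 2 and 3 for Clk2, for 1 Clk4 probe and for the satellite cell marker Cdh15, as given with those genes. The myofiber markers had signal in all groups, with 8 of 10 higher in nuclei, and 5 of 5 nuclear noncoding RNAs were higher in nuclei with a median difference of 2.78. In EDL, soleus and TA the difference was 3.15, 3.44 and 1.55 for Malat1 and 4.70, 6.71 and 1.72 for Xist. For Kcnq1ot1 it was 4.26, 3.13 and 2.43, for Meg3 2.30, 2.89 and 1.48, and for Neat1 2.57, 2.82 and 2.96. All but Neat1 thus had their smallest difference in TA. The part of this in the muscle comparisons below was not tested. Markers of other cells also differed between the fractions: 5 of 5 endothelial, 5 of 5 fibroblast and 4 of 4 Schwann cell markers were higher in nuclei, 2 of 3 tested satellite cell markers were higher, 5 of 5 macrophage markers were lower and 1 of 3 erythroid markers was lower. The summed level of the endothelial markers was 10.12 to 12.02 in cytoplasm and 11.94 to 12.52 in nuclei, that of the fibroblast markers 14.24 to 15.46 and 15.20 to 16.16, and that of the Schwann cell markers 7.91 to 9.30 and 9.34 to 10.87, and each marker was well above background on some array. The part of these cells in the results below was not tested.

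OGT is the enzyme that attaches a single N-acetylglucosamine sugar (O-GlcNAc) to serine and threonine residues of nuclear and cytoplasmic proteins, and the enzyme encoded by Mgea5, also called OGA, removes it. The CLK kinases are nuclear dual-specificity kinases that phosphorylate SR proteins, the serine- and arginine-rich splicing factors, and so affect where these factors sit and which exons are joined. Transcripts of OGT, CLK1 and CLK4 are textbook cases of polyadenylated RNA that keeps an intron and is held in the nucleus until it is spliced or degraded. The probes here were all designed on mature transcript sequence, so neither a retained intron nor splicing itself was measured.

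The probe sequences are shown because Ogt and Clk4 are each read by a pair of probes at different places in the transcript, and because only the upstream Ogt probe and the Clk1 probe cross a splice junction. Sequences and mouse mm9 coordinates are those of the array files. The first Ogt probe begins at base 3163 of its transcript and spreads its 60 bases over chrX:98874662-98877529 (plus strand), skipping 2808 genomic bases. The second begins at base 4838, at chrX:98879145-98879204 (plus strand), 1616 bases beyond the end of the first. The Mgea5 probe begins at base 1427 of its transcript, at chr19:45842367-45842426 (minus strand). The Clk1 probe begins at base 1254 and covers chr1:58469863-58470285 (minus strand), skipping 363 genomic bases. The Clk2 probe begins at base 1752, at chr3:88980452-88980511 (plus strand), and the Clk3 probe at base 1928, at chr9:57599926-57599985 (minus strand). The Clk4 probes are close together on the plus strand, the upstream one from base 1416 at chr11:51094791-51094850 and the downstream one from base 1554 at chr11:51094929-51094988, with 79 bases between them. Of the downstream Ogt probe, the Clk2 probe and the downstream Clk4 probe the first 30 of 60 bases are printed. Whether a probe lies in a coding or an untranslated exon was not read here.
Ogt, upstream probe: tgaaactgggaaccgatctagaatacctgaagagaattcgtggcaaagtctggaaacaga
Ogt, downstream probe: ctgctaattaaaacctaagcaagaagtctc
Mgea5: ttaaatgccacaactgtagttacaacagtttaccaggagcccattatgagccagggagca
Clk1: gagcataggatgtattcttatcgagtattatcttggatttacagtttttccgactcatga
Clk2: agccacccaacaccaagttgtgggactcca
Clk3: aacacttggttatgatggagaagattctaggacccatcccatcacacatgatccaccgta
Clk4, upstream probe: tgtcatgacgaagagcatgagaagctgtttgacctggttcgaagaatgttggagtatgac
Clk4, downstream probe: aggggtcttctgtgtacttctctaggagca

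On the upstream Ogt probe, which crosses a splice junction, the EDL cytoplasm arrays read 6.59, 5.63 and 6.28 and the EDL nuclei 9.86, 9.71 and 9.78. In soleus the cytoplasm arrays read 6.44, 6.51 and 5.78 and the nuclei 9.25, 9.10 and 9.31. In TA the cytoplasm arrays read 4.88, 4.10 and 5.47 and the nuclei 9.08, 9.10 and 9.06. All 9 nuclear arrays lay above all 9 cytoplasmic arrays, as was the case for 6.44% of the 35528 probes with a value on every array. The nuclear level of Ogt exceeded the cytoplasmic one by 3.62 ± 0.18 (log2, SE, n = 9 arrays against 9) over the 3 muscles, a 12.3-fold difference and the 24th largest of 40541 probes. The excess was 2.97 in soleus, 3.61 in EDL and 4.27 in TA, each with an SE of 0.31 (3 arrays against 3). In TA the cytoplasmic probe was well above background on 2 of 3 arrays.

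The downstream Ogt probe was not significantly above background on any of the 9 cytoplasm arrays. In EDL nuclei it read 5.56, 5.14 and 5.31, well above background on all 3 arrays. In soleus nuclei it read 4.73, 4.20 and 4.89, and in TA nuclei 4.37, 3.84 and 4.67, well above background on 2 arrays and on 1 array respectively. In the cytoplasm this probe thus has only an upper limit. Against the lowest signals called well above background on the cytoplasm arrays, the EDL nuclei were at least 2.21-fold higher. In soleus and TA nuclei 1 array each lay below that floor, and no fold is given.

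Mgea5, whose product takes O-GlcNAc off again, had a smaller nuclear excess with little spread. The EDL cytoplasm arrays read 8.41, 8.40 and 8.44 and the EDL nuclei 9.51, 9.53 and 9.42. In soleus the cytoplasm arrays read 8.51, 8.49 and 8.44 and the nuclei 9.36, 9.53 and 9.59. In TA both fractions sat lower, with cytoplasm arrays at 8.032, 7.440 and 7.796 and nuclei at 8.92, 9.01 and 8.96. Here too all 9 nuclear arrays lay above all 9 cytoplasmic arrays. The difference was 1.10 ± 0.09 (SE) over the muscles, at 1.07 in EDL, 1.02 in soleus and 1.21 in TA (SE 0.16 each). Of this pair of enzymes, the transferase Ogt had the larger nuclear excess in all 3 muscles. Ogt was chosen for that excess and Mgea5 was not, so nothing is read from this order.

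Clk1, an SR protein kinase, came next after Ogt among the 6 genes. In EDL the cytoplasm arrays read 7.803, 8.214 and 8.577 and the nuclei 10.34, 10.32 and 10.26. In soleus the cytoplasm arrays read 8.79, 8.98 and 7.65 and the nuclei 10.12, 10.20 and 10.21. In TA the cytoplasm arrays read 6.31, 4.71 and 5.45 and the nuclei 9.43, 9.44 and 9.38. All 9 nuclear arrays again lay above all 9 cytoplasmic ones, and the TA cytoplasm arrays were the lowest of the 18. The nuclear excess was 2.58 ± 0.21 (SE), 5.98-fold, over the muscles and ranked 179 of 40541. By muscle it was 1.70 in soleus, 2.11 in EDL and 3.93 in TA (SE 0.36 each), and in TA it ranked 13.

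Clk4, the closest relative of Clk1 in the family, had a nuclear excess of similar size on its 2 probes. On the upstream probe the excess was 0.92 ± 0.23 (SE), at 1.04 in EDL, 0.77 in soleus and 0.95 in TA (SE 0.40 each). On the downstream probe it was 1.17 ± 0.25 (SE), at 1.21 in EDL, 1.10 in soleus and 1.20 in TA (SE 0.43 each). The arrays of the fractions overlapped on both probes once the muscles were pooled. Within EDL and within soleus every nuclear array lay above every cytoplasmic array on both, as for 32% of all probes with 6 values in EDL and 28.5% in soleus: upstream, the EDL arrays read 5.97, 6.37 and 7.20 in cytoplasm and 7.50, 7.46 and 7.71 in nuclei, and the soleus arrays 6.98, 6.26 and 7.20 in cytoplasm and 7.60, 7.46 and 7.70 in nuclei. Downstream, the EDL arrays read 6.71, 6.92 and 7.84 in cytoplasm and 8.35, 8.31 and 8.45 in nuclei, and the soleus arrays 7.51, 7.09 and 7.45 in cytoplasm and 8.42, 8.47 and 8.45 in nuclei. In TA the upstream probe overlapped, with cytoplasm at 5.05, 4.74 and 5.45 and nuclei at 6.48, 6.66 and 4.94. The downstream probe read 6.23, 8.05 and 8.39 in TA cytoplasm and 8.44, 8.55 and 9.26 in TA nuclei, where TA cytoplasm 1 is the low array.

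Clk3 and Clk2 had the smallest differences. Clk3 read 8.52, 8.13 and 7.82 in EDL cytoplasm and 9.11, 8.80 and 8.86 in EDL nuclei, 8.00, 7.38 and 8.01 in soleus cytoplasm and 8.60, 8.51 and 8.65 in soleus nuclei, and 7.90, 8.09 and 8.31 in TA cytoplasm and 8.48, 8.56 and 8.52 in TA nuclei. Its nuclear arrays lay above the cytoplasmic arrays of the same muscle in each of the 3 muscles (22.6% of all probes in TA), by 0.77 in EDL, 0.79 in soleus and 0.42 in TA (SE 0.21 each) and by 0.66 ± 0.12 (SE) over all. Clk2 showed no common direction: nuclei stood at -0.54 from cytoplasm in EDL, at 0.29 for soleus and at 0.89 for TA (SE 0.66 each), and at 0.21 ± 0.38 (SE) over all. Without TA cytoplasm 1 the difference stood at -0.22 in TA and -0.16 over all. Its arrays read 6.32, 7.81 and 6.10 in EDL cytoplasm against 6.19, 6.20 and 6.21 in EDL nuclei, and 6.53, 5.83 and 5.91 in soleus cytoplasm against 6.42, 6.35 and 6.37 in soleus nuclei. In TA they read 5.54, 8.72 and 9.01 in cytoplasm and 8.42, 8.58 and 8.95 in nuclei, so that TA cytoplasm 1 lay below all the EDL and soleus arrays and the other 5 TA arrays lay above them.

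**Figure D1:**
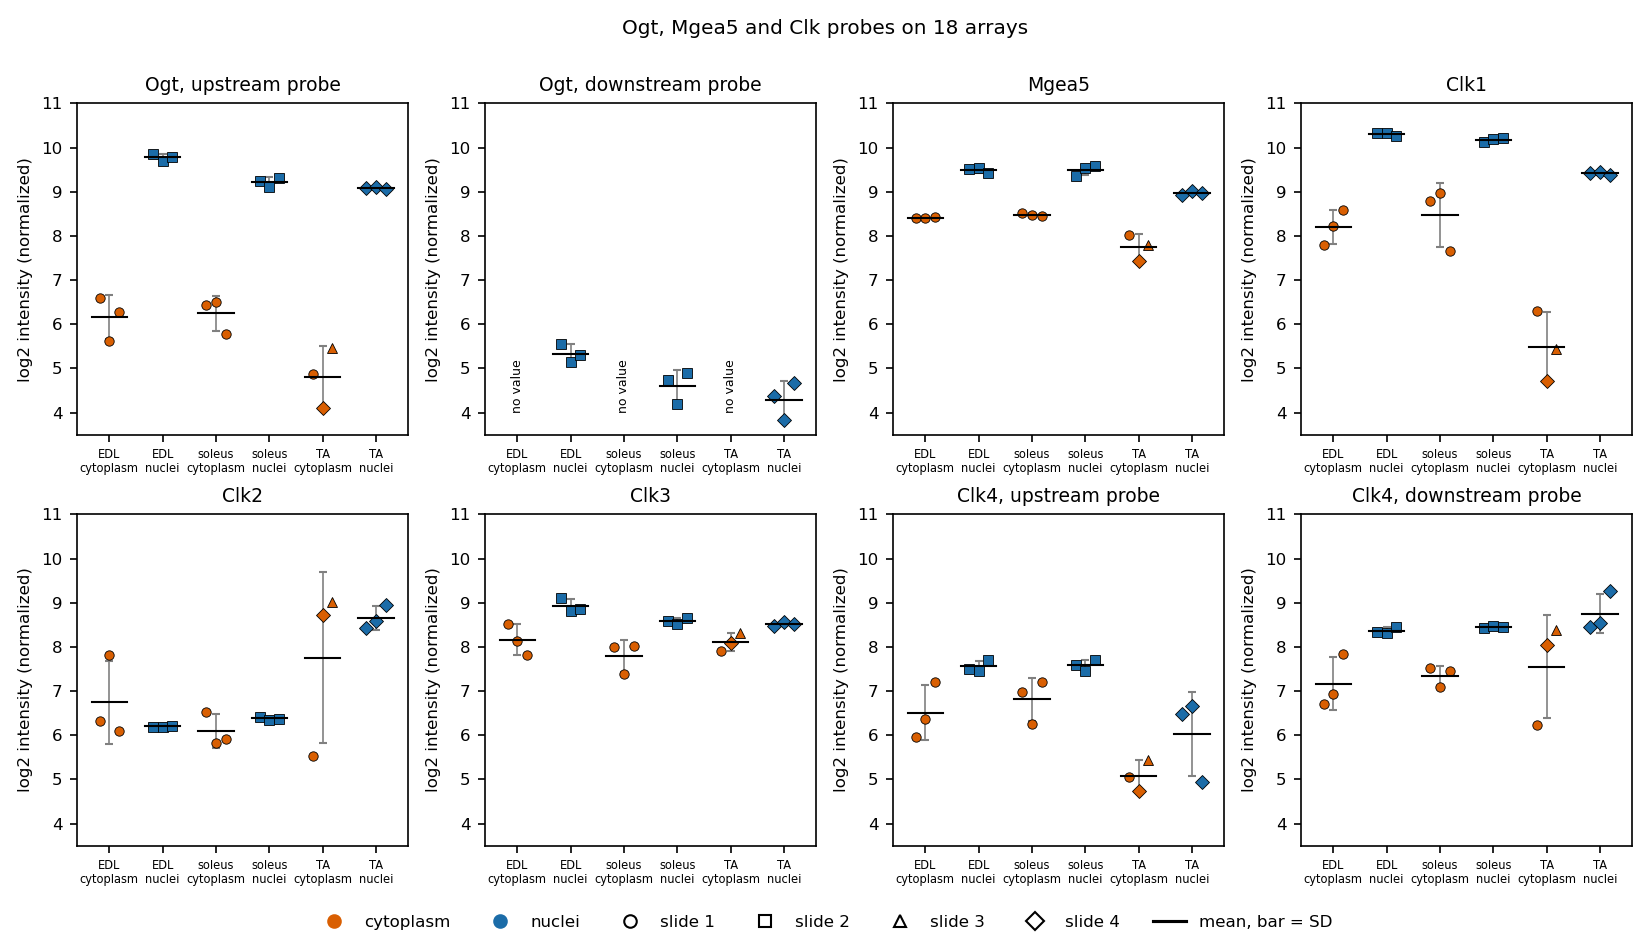
Log2 normalized intensity of the 8 probes on the 18 arrays by muscle, with cytoplasm in orange, nuclei in blue, a marker shape for each slide, a line at the mean and a bar for the SD of 3 arrays. The upstream Ogt probe, Mgea5 and Clk1 show all 9 nuclear arrays above all 9 cytoplasm arrays, whereas Clk2 separates the 5 TA arrays of slides 3 and 4 from the other 13.

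Among the 7 member probes that could be fitted in both fractions, 6 passed an adjusted p of 0.05 as higher in nuclei over the muscles, where 31.2% of all 40541 probes did so. Within single muscles 6 of 7 passed in EDL (background 20%), 4 of 7 in soleus (18.7%) and 4 of 7 in TA (19.2%). Since the genes were chosen from this contrast, nothing is read from these counts. The median difference of the 7 probes was 1.10, with -0.08 over all probes. Without scaling between arrays the median over all probes was 0.42 and the upstream Ogt probe stood at 4.23, Clk1 at 3.28 and Mgea5 at 1.85. These calls used no threshold of size beside the adjusted p, but Ogt itself was chosen for the size of its nuclear excess.

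**Figure D2:**
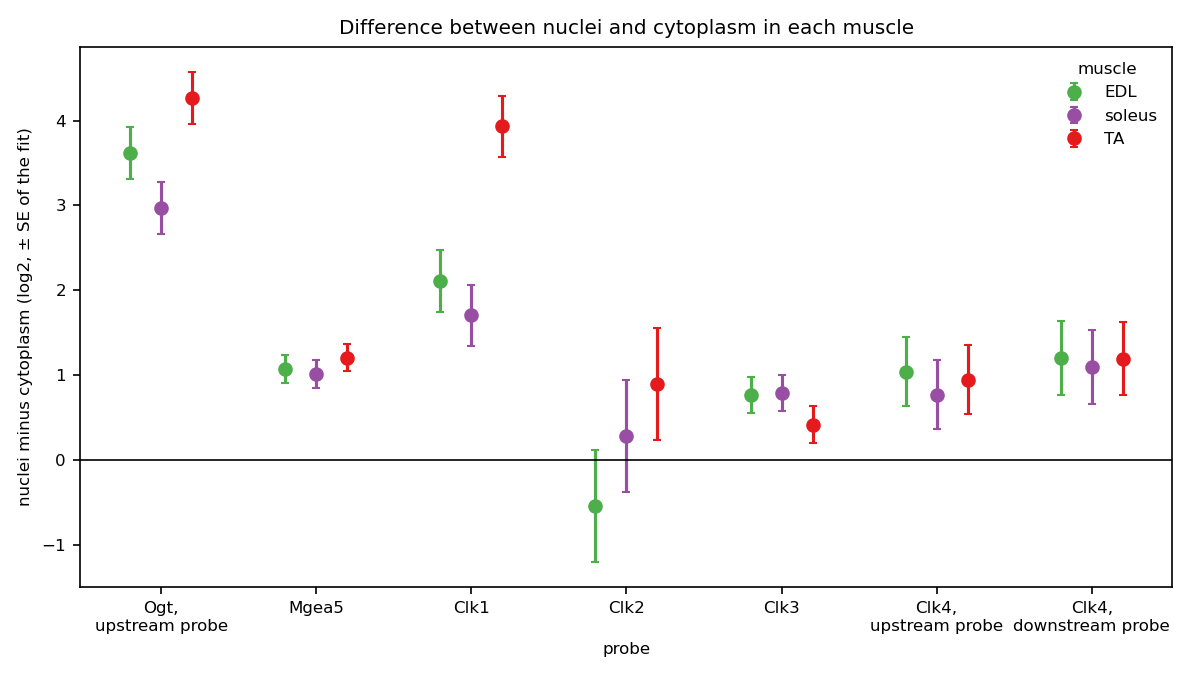
Nuclear minus cytoplasmic log2 level of the 7 probes measured in both fractions, for each muscle in its own colour, with bars of 1 SE of the fit. The upstream Ogt probe spans 2.97 to 4.27 and Clk1 1.70 to 3.93, while Mgea5, Clk3 and the Clk4 probes lie between 0.42 and 1.21.

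The TA nuclei could be set against a cytoplasm array of their own slide, slide 4, which holds TA cytoplasm 2. Against this 1 array the 3 TA nuclei were higher by 4.71 for Clk1, by 1.52 for Mgea5 and by 1.28 for the upstream Clk4 probe. The downstream Clk4 probe was higher by 0.70 and Clk3 by 0.43, and Clk2 differed by -0.07. With TA cytoplasm 3, scanned on the same day, added, the differences were 4.34 for Clk1 and 1.34 for Mgea5. The upstream Ogt probe was not well above background on TA cytoplasm 2, so that its difference within the slide has no exact size, and on TA cytoplasm 3 it read 5.47 against 9.06 to 9.10 in the TA nuclei. The excess of Clk1 and Mgea5 was thus at least as large within this slide and scan day as over the whole set of TA arrays, whereas the downstream Clk4 and Clk2 differences were smaller. For EDL and soleus no such comparison exists, since no slide held both of their fractions. With slide as a random block the differences over the muscles were 3.77 for Ogt, 3.00 for Clk1, 1.25 for Mgea5, 0.97 and 0.62 for the upstream and downstream Clk4 probes, 0.59 for Clk3 and -0.73 for Clk2. Of the 7 probes 3 passed the threshold. Of all 40541 probes 14618 passed in either direction, 6548 as higher in nuclei and 8070 as lower. Since the genes were chosen from this contrast, nothing is read from the count of 3.

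Whether the nuclear excess depended on the muscle was tested with limma as the interaction of muscle and fraction. Clk1 had an excess larger by 2.23 ± 0.51 in TA than in soleus (SE; 95% confidence interval 1.14 to 3.31, adjusted p = 0.0302), and it was the only one of 7 member probes past the threshold in that comparison, where 3.33% of all probes were and 0.878% were with the larger excess in TA. Its excess in TA was larger than in EDL by 1.82 ± 0.51 (adjusted p = 0.148), and soleus differed from EDL by -0.41 (95% confidence interval -1.49 to 0.68, adjusted p = 0.951). For the upstream Ogt probe the excess in TA was larger than in soleus by 1.30 ± 0.44 (adjusted p = 0.108) and larger than in EDL by 0.65 (adjusted p = 0.583). In the joint test over the 3 muscles no member probe of 7 passed (background 1.57%), with 2 of 7, Clk1 and Ogt, under an unadjusted p of 0.05 and limma adjusted p-values of 0.0607 for Clk1 and 0.242 for Ogt. Mgea5 (adjusted p = 0.884), Clk2 (0.657), Clk3 (0.716) and the upstream and downstream Clk4 probes (0.966 and 0.995) did not pass in the joint test either. None of 7 passed between TA and EDL (background 0.339%, 1 under an unadjusted p of 0.05) or between soleus and EDL (background 0.0286%, 0 under an unadjusted p of 0.05).

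The call of Clk1 between TA and soleus held under 16 of 29 other settings. It was lost without TA cytoplasm 2 (1.84, adjusted p = 0.0649), without soleus cytoplasm 2 (1.97, adjusted p = 0.0595), without any 1 of the soleus or TA nuclei arrays (2.20 to 2.24, adjusted p = 0.0611 to 0.0754), with no scaling between arrays (1.20, adjusted p = 0.0547), with slide as a random block (2.20, adjusted p = 0.227), with replicate number as a block (adjusted p = 0.0502), with only the groups compared (adjusted p = 0.0916) and with the nuclear arrays of a muscle averaged to 1 sample (adjusted p = 1.00). Without TA cytoplasm 1 it held, and 1 member probe, Clk1, then also passed between TA and EDL.

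Within the cytoplasm, 4 member probes were lower in TA than in the other muscles. Clk1 differed by -2.71 ± 0.36 (log2, SE, limma adjusted p = 0.000792) between TA and EDL cytoplasm and by -2.98 between TA and soleus cytoplasm (adjusted p = 8.84e-05). Ogt, on its upstream probe, was lower in TA by a log2 difference of -1.35 against EDL (adjusted p = 0.0138) and -1.43 against soleus (adjusted p = 0.00419). The upstream Clk4 probe differed by -1.43 against EDL (adjusted p = 0.0322) and -1.73 against soleus (adjusted p = 0.00652). Mgea5 differed by -0.66 against EDL (adjusted p = 0.0186) and -0.72 against soleus (adjusted p = 0.00523). These 4 of 7 tested probes stand beside 7.33% of all probes lower in TA than in EDL cytoplasm and 12.8% lower in TA than in soleus cytoplasm. Clk3 differed by -0.06 against EDL (adjusted p = 0.904) and 0.31 against soleus (adjusted p = 0.297), the downstream Clk4 probe by 0.39 (adjusted p = 0.610) and 0.20 (adjusted p = 0.754), and Clk2 by 1.02 (adjusted p = 0.346) and 1.66 (adjusted p = 0.0698).

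TA cytoplasm 1, the array on the slide of the EDL and soleus cytoplasm, gives this comparison within 1 slide. It read 6.31 for Clk1, below the 7.65 to 8.98 of the 6 EDL and soleus arrays, and 4.88 for the upstream Ogt probe, below their 5.63 to 6.59. It also lay below their range for Mgea5 (8.03 against 8.40 to 8.51), the upstream Clk4 probe (5.05 against 5.97 to 7.20), the downstream Clk4 probe (6.23 against 6.71 to 7.84) and Clk2 (5.54 against 5.83 to 7.81), and within it for Clk3 (7.90 against 7.38 to 8.52). The share of all probes that lay below these 6 arrays on TA cytoplasm 1 was not counted. Nothing particular to these genes is therefore read from it. With this array alone for TA cytoplasm, Clk1 stood at -1.89 against EDL and -2.16 against soleus. Against EDL, 2 probes passed without EDL cytoplasm 1, 1 without TA cytoplasm 2 and 6 without TA cytoplasm 1, when Clk2 and the downstream Clk4 probe also passed, both higher in TA. With the groups of each comparison fitted alone, 0 passed against EDL (Clk1 adjusted p = 0.124) and 1 against soleus (Clk1, adjusted p = 0.0456).

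In nuclei, Mgea5 and the upstream Clk4 probe were again lower in TA, and Clk2 was higher. Mgea5 was lower in TA nuclei by a log2 difference of -0.53 against EDL (adjusted p = 0.0371) and -0.53 against soleus (adjusted p = 0.0321). The upstream Clk4 probe differed by -1.53 (adjusted p = 0.0197) and -1.56 (adjusted p = 0.0147), with TA nuclei 3 at 4.94 the lowest of the 9 nuclear arrays. The downstream Ogt probe differed by -1.04 against EDL (adjusted p = 0.0334) and -0.31 against soleus (adjusted p = 0.474), and only 1 of the 3 TA nuclei arrays had it well above background. Clk2 was the 1 member probe higher in TA nuclei, by 2.45 against EDL (adjusted p = 0.0214) and 2.27 against soleus (adjusted p = 0.0260). Of all probes, 7.59% were higher and 9.81% lower in TA than in EDL nuclei, and 7.75% were higher and 11.9% lower in TA than in soleus nuclei.

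Clk1 differed by -0.89 between TA and EDL nuclei (adjusted p = 0.0997) and by -0.76 between TA and soleus nuclei (adjusted p = 0.154), and the upstream Ogt probe by -0.70 (adjusted p = 0.127) and -0.14 (adjusted p = 0.797). Clk3 differed by -0.40 (adjusted p = 0.200) and -0.07 (adjusted p = 0.863), and the downstream Clk4 probe by 0.38 (adjusted p = 0.575) and 0.30 (adjusted p = 0.668). All TA nuclei lay on a slide and scan day without EDL or soleus arrays, so muscle and slide cannot be told apart in nuclei, and no nuclear call was left with slide as a random block. Of the 4 calls between TA and EDL nuclei none was left without any 1 EDL array and 1 or 2 without any 1 TA array, and of the 3 against soleus nuclei 0 or 1 without any 1 soleus or TA array.

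**Figure D3:**
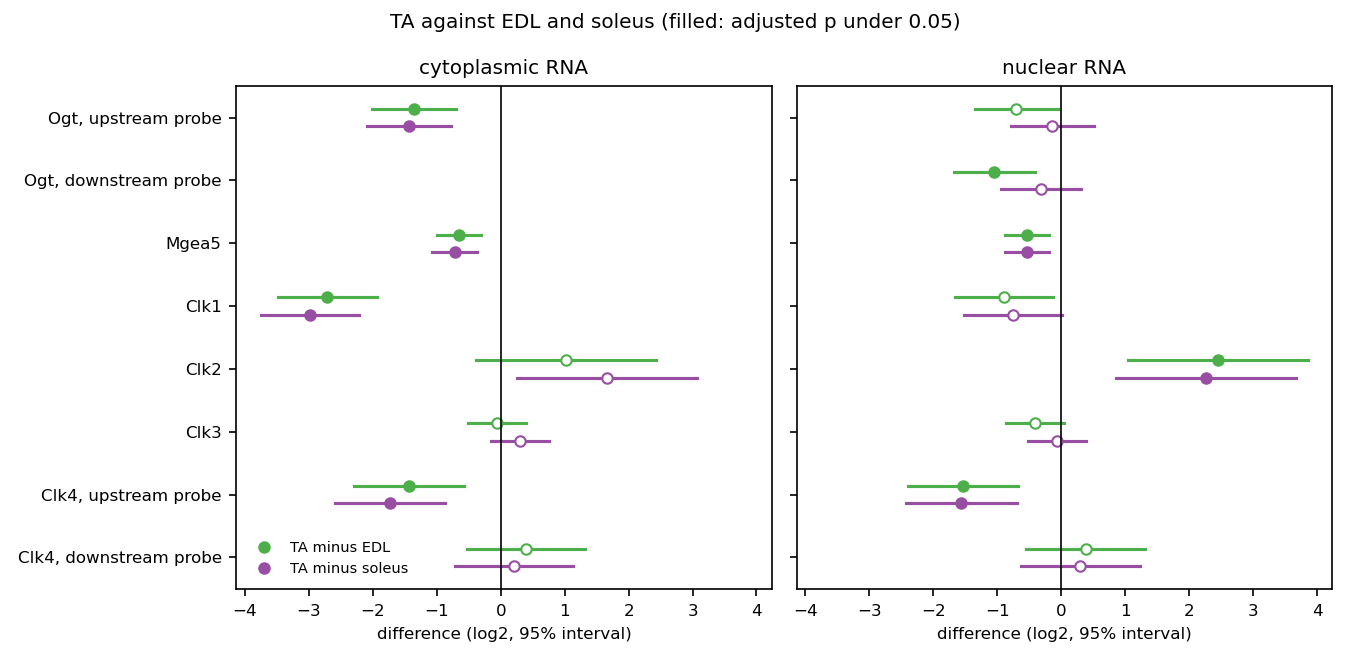
Log2 difference of TA from EDL and of TA from soleus for each member probe, in cytoplasm (left) and in nuclei (right), with bars of the 95% confidence interval and filled markers past an adjusted p of 0.05. Clk1 in cytoplasm lies lowest, at -2.71 and -2.98, and Clk2 in nuclei highest, at 2.45 and 2.27.

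Soleus and EDL, taken from the same mice, gave no call. With limma 0 of 8 member probes passed in nuclei (background 1.56%, 1 under an unadjusted p of 0.05, the downstream Ogt probe) and 0 of 7 in cytoplasm (background 1.42%, 0 under an unadjusted p of 0.05). The nuclear differences farthest from 0 were those of the downstream Ogt probe, at -0.73 (adjusted p = 0.396), and of the upstream Ogt probe, at -0.56 (adjusted p = 0.650), both lower in soleus.

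Clk2 and the downstream Clk4 probe followed a pattern that set arrays of slides 3 and 4 apart from those of slides 1 and 2, also within TA. The mean of TA cytoplasm 2 and 3 exceeded TA cytoplasm 1 by 3.33 for Clk2, a gap reached by 0.847% of 44536 probes, and by 1.99 for the downstream Clk4 probe, a gap reached by 3.33% of them. The difference between the downstream and the upstream Clk4 probe was 0.25 to 1.17 on the 13 arrays of slides 1 and 2, with a median of 0.75, and 1.89 to 4.32 on the 5 arrays of slides 3 and 4, with a median of 2.94. The ranges did not overlap, so that these probes, 79 bases apart, disagreed over TA: the upstream one was lower there and the downstream one was not. The share of all probes, or of probe pairs, that set these 5 arrays apart from the 13 was not counted. Nothing particular to Clk2 or Clk4 is therefore read from this separation. The summed level of the 5 satellite cell markers was 6.99 to 8.68 on the 13 arrays and 11.62 to 12.58 on the 5, and Cdh15 alone carried this gap. Cdh15, a cadherin, read 6.26 to 7.00 on the 13 arrays, with TA cytoplasm 1 at 6.60, and 11.55 to 12.53 on the 5. Against all 13 arrays, Pax7, Vcam1 and Megf10 gave no such gap. Pax7 read 4.79 to 5.98 on the 5 arrays and up to 5.23 on the others. Vcam1 read 6.33 to 7.10 and up to 6.88, and Megf10 4.75 to 6.33 and up to 7.10. Within TA, however, TA cytoplasm 1 lay below the 5 arrays on each of them. It read 3.83 for Pax7, 5.36 for Vcam1 and 4.56 for Megf10. Myf5 kept a value on soleus cytoplasm 2 alone after spots were filtered and can show no gap. Before the filter its signal was called well above background 13 times, so its missing values do not mean absence. The part of these cells, of the mice and of the slides in the Clk2 and Clk4 values was not tested.

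**Figure D4:**
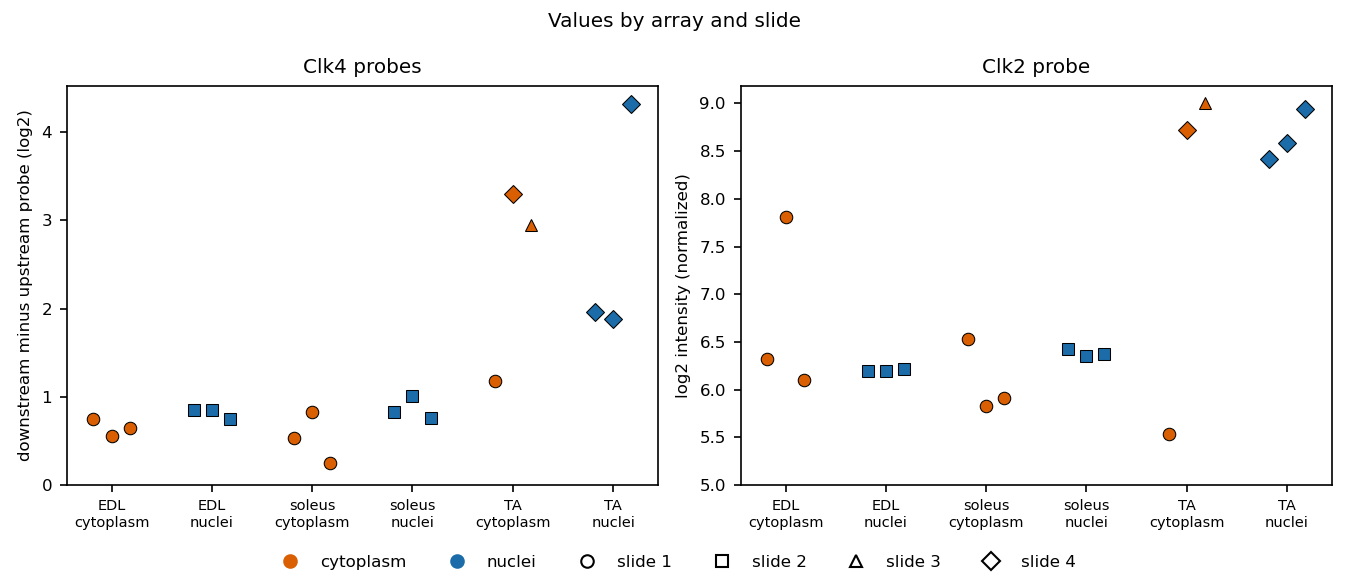
Difference of the downstream from the upstream Clk4 probe (left) and level of Clk2 (right) on each of the 18 arrays, on log2 scales, with cytoplasm in orange, nuclei in blue and marker shape by slide. The 5 arrays of slides 3 and 4 lie above the 13 of slides 1 and 2 on both, with TA cytoplasm 1 among the 13. The share of all probes that separate in this way was not counted.

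Genes with related roles were described beside the members by their difference between nuclei and cytoplasm over the 3 muscles, where 31.2% of all probes were higher, 38.6% lower and the median was -0.08. Marker lists without these roles had medians of 0.89 (myofiber), 0.89 (satellite cell), 0.90 (fibroblast), 1.16 (endothelial) and 1.20 (Schwann cell). The macrophage and erythroid markers had medians of -0.81 and -0.38. An excess of the size of the medians below is thus not particular to these roles. Of the enzymes that make or recycle the sugar donor UDP-GlcNAc and other O-GlcNAc genes, 8 of 13 tested (14 listed, each gene by its brightest probe) were higher in nuclei and 1 was lower, with a median of 0.90. Uap1, which makes UDP-GlcNAc itself, was higher by 1.59, Eogt, the transferase of the secretory pathway, by 1.30, and Gfpt2, which starts hexosamine synthesis, by 1.27. Gnpda1, a glucosamine-6-phosphate deaminase that runs the pathway backwards, was the only one lower, at -0.77 (adjusted p = 8.09e-05). Ogt at 3.62 lay above all of this list, and Mgea5 at 1.10 lay within it. Ogt was chosen for its large nuclear excess, so nothing is read from its place.

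Of other kinases of SR proteins and of the related DYRK and HIPK families, 8 of 11 tested (13 listed) were higher in nuclei and 2 were lower, with a median of 0.96. The SR protein kinases Srpk1 and Srpk3 were higher by 1.64 and 1.24 and the splicing kinase Prpf4b by 1.30, and the lower ones were Dyrk1b at -0.95 and Hipk4 at -0.71. Clk1 at 2.58 lay above this list, from which nothing is read, since the members were chosen with this contrast known. Of the SR proteins and Tra2 factors, the class that CLK kinases phosphorylate, 8 of 12 tested (13 listed) were higher and none lower, with a median of 0.95 and the highest values for Srsf10 (1.89), Srsf7 (1.74) and Tra2a (1.67). Srsf6, counted as higher, stood at 0.90 in EDL and 1.91 in soleus but at -0.72 in TA. Its mean level was 9.49 in TA cytoplasm and 8.77 in TA nuclei, against 4.14 to 6.06 in the EDL and soleus groups. Of 9 other genes known for nuclear or intron-retaining transcripts 8 were higher, with a median of 1.00, led by the splicing factors Luc7l3 (1.98), Rbm5 (1.42) and Rbm39 (1.25), and Slc7a2 stood at 0.10 (adjusted p = 0.673).

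**Figure D5:**
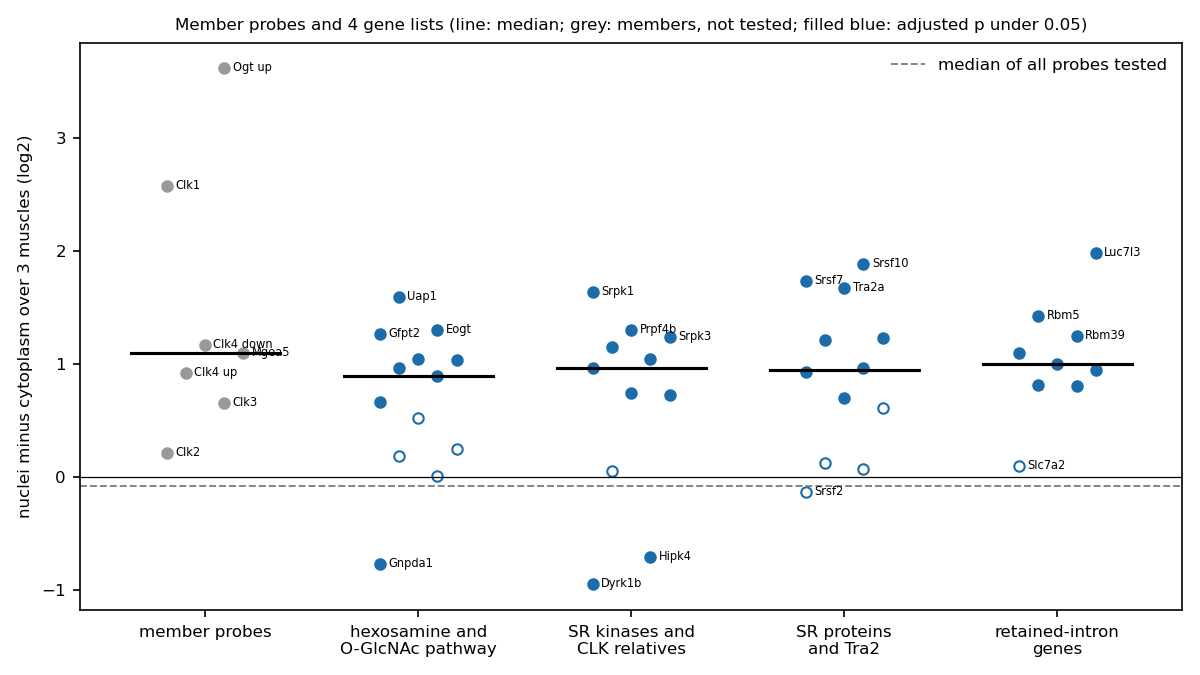
Nuclear minus cytoplasmic log2 difference over the 3 muscles of each gene in the 4 lists, with the members in grey in a column of their own, filled blue points past an adjusted p of 0.05, a short line at each median and a dashed line at the median of all probes, -0.08. Ogt at 3.62 and Clk1 at 2.58 lie above every gene of the lists, whose highest is Luc7l3 at 1.98. The members were chosen with this contrast known, so their place is description only.

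The genes whose levels followed Ogt most closely over the 18 arrays were Nktr, a cyclophilin with an SR-like domain (r = 0.984), Ppp1r12a, a myosin phosphatase subunit (0.983), Mgat4a, a glycosyltransferase of the Golgi (0.983), Nsmaf (0.982) and Ttc19 (0.980). With the mean of each fraction subtracted, the same genes had r of 0.890, 0.868, 0.821, 0.799 and 0.885. Among the members, Mgea5 followed Ogt with r = 0.949 (0.794 after subtraction) and Clk1 with 0.903 (0.851). The others followed it less: Clk3 had 0.766 (0.080), the upstream Clk4 probe 0.624 (0.632) and the downstream one 0.680 (-0.211). Clk2 had -0.079 (-0.524). For Clk1 the closest were Hnrnph1, a splicing regulator (0.987), Pds5a, a cohesin cofactor (0.986), Ubtd2 (0.986), Dmd, the gene of dystrophin (0.985), and Sash1 (0.985), with 0.968, 0.965, 0.964, 0.974 and 0.963 after subtraction. Of the other members, Mgea5 had 0.955 with Clk1 (0.903 after subtraction) and the upstream Clk4 probe 0.770 (0.723). Clk3 had 0.518 (-0.238), the downstream Clk4 probe 0.438 (-0.366) and Clk2 -0.334 (-0.637). These correlations describe 18 arrays that share 6 groups, 4 slides and 1 normalization.

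Other probes close to those of the members on the genome were few. Within 10000 bases none lay near the Ogt or Clk4 probes, and no other probe on the array shared 30 bases with a member probe. Near Clk1 lie 3 probes of Bzw1, a gene on the opposite strand, whose nuclear minus cytoplasmic differences were 0.06, -0.01 and 1.00, against 2.58 for Clk1. Near Clk2 lie 2 probes of Scamp3, a membrane trafficking gene, at 0.48 and 0.43, neither past the threshold. On the same strand as the Mgea5 probe, at chr19:45836384-45836443, a probe named E330018D03Rik had a difference of 1.06 ± 0.16 (SE, adjusted p = 2.24e-05), close to the 1.10 of Mgea5.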

How the data were processed

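RNA was labelled with Cy3 by the authors with the Low Input Quick Amp kit, and the deposited scanner tables hold the spots of an array each, with 59305 non-control and 3671 control spots, scanned and quantified with Agilent Feature Extraction 10.7.3.1 per the submitters' processing notes. The values used were the deposited background-corrected intensities (gProcessedSignal). The deposited log2 value table, quantile-normalized by the authors, was not used because no values for the member probes were found in it. Non-control spots were positive and significant for 78.9 to 89.3% and well above background for 58.6 to 71.2% of an array. The number of arrays limits the precision.

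Outlier spots and spots not positive and significant over background in Feature Extraction's own test were left out, and intensities were taken to log2, quantile-normalized between arrays, and averaged over spots of a probe. A model with the 6 groups was fitted across all probes with limma 3.58.1 (R 4.3.3, the data.table package in version 1.17.8), on probes with a value on at least 2 arrays of each group compared, with two-sided moderated tests, Benjamini-Hochberg adjustment over all probes and a threshold of 0.05. This took the place of the methods' t-tests and significance analysis of arrays. Summaries and figures used Python 3.11.15, numpy 2.4.6, pandas 2.3.3, scipy 1.17.1 and matplotlib 3.10.9. The fit was tested on simulated data. The members and all gene and marker lists were chosen with earlier results of these data known, and 1 listed gene is not reported here. From each list the genes with the 3 largest absolute differences were named, plus any gene that was the only call in its direction, and the 5 genes most correlated with Ogt and with Clk1.

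EDL and soleus pools with the same number came from the same mice per the labels, so their numbers pair the samples. Deviations of same-numbered arrays from their group means correlated between -0.11 and 0.10 for EDL and soleus and between -0.09 and 0.13 for TA over 35528 probes. TA numbers do not pair with the others. Alternatives were other scaling, normexp background, no filter, blocks for replicate number, mouse pool and slide, other sets of arrays, and each array left out in turn.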

Additional observations from a re-analysis of the deposited data

Results flagged for a closer look

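The nuclear excess of Clk1 (probe A_52_P679152) was larger by 2.23 (log2, limma adjusted p = 0.0302) in TA than in soleus under the interaction test, with excesses of 3.93 and 1.70. TA against EDL (limma adjusted p = 0.148) and the joint test over the muscles (0.0607) did not pass. The call held under 16 of 29 other settings and was lost with slide as a random block. All TA nuclei and TA cytoplasm 2 and 3 lay on slides without soleus arrays, so muscle and slide cannot be told apart there. The TA cytoplasm arrays read 6.31, 4.71 and 5.45, against 7.65 to 8.98 in soleus cytoplasm and 9.38 to 9.44 in TA nuclei.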

How the results depend on the processing

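No called value changed sign under any setting run. Clk2, which was not called between the fractions, did: it went from 0.21 to -0.73 over the muscles and from 0.29 to -0.87 in soleus with slide as a random block, and from 0.89 to -0.22 in TA and 0.21 to -0.16 over the muscles without TA cytoplasm 1. Counts of calls are over 7 member probes (8 in nuclei) unless a list is named. With slide as a random block, calls over the muscles went from 6 to 3, in EDL from 6 to 3, between TA and EDL from 4 to 0 in nuclei and from 4 to 1 in cytoplasm, between TA and soleus nuclei from 3 to 0, in the TA against soleus interaction from 1 to 0, in the O-GlcNAc list from 9 to 5 and in the retained-intron list from 8 to 5. With the nuclear arrays of a muscle averaged to 1 sample, calls were 1 in EDL, 1 in soleus (of 4) and 2 in TA (of 4), 0 between TA and EDL in either fraction, 0 between TA and soleus in nuclei and 2 in cytoplasm (of 4), and 0 in the interaction of TA against soleus. No scaling gave 7 calls for TA against EDL nuclei, 7 against soleus nuclei, 2 in the interaction of TA against soleus and 1 in the joint interaction. Of all probes, 12779 of 43303, 21274 of 43529, 19704 of 41366 and 14766 of 40541 were then called, so nothing is read from these counts. The joint interaction also had 1 call with 75th percentile scaling (1045 of 40541 probes) and 1 with no filter (1320 of 55674). The TA fractions had 7 with no filter (25966 of 55681). Soleus against EDL nuclei had 1 with normexp (1334 of 44568 probes) and 1 with only those groups fitted (6347 of 44568). With only the groups compared, TA gave 7 calls against EDL nuclei, 0 against EDL cytoplasm, 1 against soleus cytoplasm and 0 in the interaction with soleus. Of all probes, 18740 of 43303, 2 of 46398, 287 of 45660 and 258 of 41366 were then called. With TA cytoplasm 1 alone, an alternative chosen after seeing the data, TA against EDL cytoplasm gave 0. The other 164 counts of this kind stayed within 1.5 times. The causes were not tested.

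With the replicate block as a fixed term, the interaction of TA against soleus went from 1 call to 0 (Clk1, adjusted p = 0.0502) and Mgea5 was lost between TA and EDL nuclei (0.0586) and between TA and soleus nuclei (0.0528). With mouse pool as a random replicate block the within-pool correlation was -0.040. For soleus against EDL, where the numbers pair the samples, the block left 0 calls.

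Leaving out each array in turn, the calls ranged from 6 to 6 over the muscles, 4 to 6 in EDL, 4 to 5 in soleus and 3 to 5 in TA, 0 to 1 in the joint interaction, 0 to 1 for TA against EDL, 0 to 2 for TA against soleus and 0 to 0 for soleus against EDL. Between TA and EDL they ranged from 0 to 5 in nuclei and 1 to 6 in cytoplasm, between TA and soleus from 0 to 3 and 4 to 6, and between soleus and EDL 0 to 0 in both. The lists ranged from 8 to 10 (O-GlcNAc), 9 to 10 (kinases), 7 to 8 (SR proteins) and 8 to 8 (retained introns). The deposited value table was not run, since 0 of 8 member probes have values in it. Dim signals limit the downstream Ogt probe to bounds.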
